A study of Rattus norvegicus with 28 samples.

Results

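The Grik4 locus on rat chromosome 8 and the RNA of Grik4 and Neto1 were examined in dorsal root ganglia (DRGs), the ganglia that hold the cell bodies of sensory neurons. The locus was taken as every accessible region of both deposited ATAC-seq tables whose start lies from 46700000 to 47800000 on chromosome 8 of the rat build rn6. This rule gave 31 of 56810 regions, which are called region 1 to region 31 in their order along the chromosome. Region 9, from 47237180 to 47237538, is the differentially accessible region (DAR) that the study assigned to Grik4. It was chosen by its change in both comparisons below, so its own change is a description with no test, and tests were made on the other 30 regions. The RNA part holds 2 of 32754 genes, Grik4 (ENSRNOG00000030910) and Neto1 (ENSRNOG00000014006).

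Kainate receptors are tetrameric glutamate-gated cation channels that act both before and after the synapse. Grik4 encodes GluK4, a subunit that binds glutamate with high affinity and forms working channels only together with a lower-affinity kainate subunit. Neto1 and Neto2 are membrane proteins that associate with kainate receptors as auxiliary subunits and alter their gating. In the DRG, kainate receptors are known from sensory neurons, including the endings that release glutamate in the dorsal horn.

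All rats were male Sprague-Dawley animals, 12 weeks old, and each library came from the L4 to L6 ganglia of 1 rat on the ipsilateral side. The groups with ATAC-seq were 6 rats at 14 days after chronic constriction injury (CCI), in which the sciatic nerve is loosely ligated, 6 rats at 48 h after injection of complete Freund's adjuvant (CFA) into the plantar surface of each hind paw, and 3 naïve rats. Injured and inflamed rats entered the study only with mechanical hypersensitivity, and naïve rats only without it. RNA-seq was analysed here for 2 CFA rats, and no RNA of the other groups was used.

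The 2 ATAC-seq tables give log2 normalized coverage per region, in a CCI table (6 CCI and 3 naïve libraries) and a CFA table (6 CFA and the same 3 naïve libraries). Within a table the libraries shared nearly the same median, and the depth behind a single value is unknown. The naïve, CFA and 2 of the CCI libraries were sequenced in 2 runs, while CCI replicates 3 to 6 were sequenced in 1. The CFA columns whose number could not be tied to a sample are called CFA a and CFA b. Because the tables were normalized separately and share their naïve libraries, CCI and CFA rats were each set only against the naïve values of the same table, and the 2 sets of changes are not independent of each other. In the RNA libraries all 14 markers that were looked up were detected, with peripherin (Prph) at 2022 ± 21.9 CPM (counts per 1000000 mapped counts; SD, n = 2) for sensory neurons, S100b at 1145 ± 24.5 CPM for glia and Col1a1 at 512 ± 16.4 CPM for fibroblasts. The other glial markers, Mbp and Gfap, were at 2035 ± 76.8 and 17.3 ± 4.72 CPM. Gfap differed by -0.56 on the log2 scale between the libraries (replicate 2 minus replicate 1), and S100b by -0.04. In such bulk tissue, fewer nuclei of a cell type and less accessible chromatin per nucleus cannot be told apart.

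The motif table of the study lists Foxo1, a forkhead transcription factor, with the consensus CTGTTTAC. No rn6 genome was used here, so neither the bases of the DAR nor its place relative to the exons of Grik4 is given. The sequence that could be read is the 250 bases before the start of Grik4 in the RefSeq promoter table of the build GRCr8, at chr8:52102064-52102313 on the minus strand. It is shown because this is the gene to which the DAR was assigned, with CpG dinucleotides in capitals. The table holds 1 start per gene, and this one lies inside the full span of Grik4, whose transcripts have several starts.
Grik4 promoter: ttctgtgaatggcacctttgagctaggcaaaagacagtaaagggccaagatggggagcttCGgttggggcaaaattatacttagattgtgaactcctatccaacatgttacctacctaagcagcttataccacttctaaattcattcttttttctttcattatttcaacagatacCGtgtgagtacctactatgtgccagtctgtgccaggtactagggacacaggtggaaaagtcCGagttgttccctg

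This window held 3 CpG dinucleotides and a GC content of 43.2%, beside medians of 5 CpG dinucleotides and 51.2% over 33469 RefSeq promoters of the same length. The corresponding window of Neto1 held 8 CpG dinucleotides and a GC content of 56.8%. Neither window held CTGTTTAC or its reverse complement GTAAACAG, which occurred in 0.977% of all promoters, nor the shorter GTTTAC or GTAAAC, which occurred in 7.0%. The potential Foxo1 site that the study reports at Grik4 lies inside the DAR and not in this window. That site was not tested here. In the RefSeq annotation of GRCr8 the nearest named protein-coding genes on the sides of Grik4 are Tbcel and Arhgef12.

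The first question was how the Grik4 DAR stood beside its neighbours after nerve injury. In the CCI table the DAR had values of 5.24, 5.12 and 5.50 in naïve replicates 1 to 3. In the 6 CCI libraries it lay between 4.18 and 4.37, with a median of 4.32. Every CCI library was below every naïve library, with a gap of 0.74 on the log2 scale between the nearest libraries of the groups. The difference was -0.99 ± 0.15 (SE), so that the CCI level was 0.502 times the naïve level. The CCI libraries were close to each other at this site, with an SD of 0.085, while the median SD over all regions was 0.322. Only 0.989% of all regions had a smaller SD. The choice of the DAR by this comparison favours a small SD, so the value is a description.

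In the CFA table the DAR had values of 5.48, 5.35 and 5.76 in the naïve libraries. The 6 CFA libraries lay between 3.997 and 4.92, with a median of 4.71, again below every naïve library, and the gap between the nearest libraries was 0.44. The difference was -0.97 ± 0.21 (SE), or 0.511 times the naïve level. Here the libraries varied more. The SD of 0.376 among CFA libraries was above that of 83.0% of all regions, and CFA 4 and CFA 5 (4.19 and 3.997) stood below the other four, which lay between 4.68 and 4.92. In level, the DAR was an ordinary region of the naïve ganglion, at the 44.6th percentile of naïve levels over all regions in both tables.

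The nearest neighbour of the DAR was region 10 (chr8:47237660-47237918), 122 bp away at higher coordinates. Only 1.48% of all regions had another region this near or nearer, and the median gap between consecutive regions was 17051 bp. In the CCI table region 10 had values of 5.34, 4.92 and 5.22 in the naïve libraries. The CCI libraries lay between 3.71 and 4.99, with a median of 4.28. CCI 3, at 4.99, overlapped the naïve group, while the other five were below every naïve library. The difference was -0.88 ± 0.29 (SE), with an adjusted p of 0.179 by limma over all 56810 regions and p = 0.0357 by a two-sided exact permutation test over all 84 arrangements of the libraries. With only the libraries sequenced in 2 runs the difference was -0.51, and the part of the runs in it was not tested.

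After CFA, region 10 had naïve values of 5.59, 5.12 and 5.45, and CFA values between 4.37 and 5.07 with a median of 4.89. The groups did not overlap. The difference was -0.60 ± 0.18 (SE), with an adjusted p of 0.119 by limma and an exact permutation p of 0.0119, the smallest that 84 arrangements can give. Region 10 did not pass the study's threshold of an unadjusted p below 0.001 in either comparison. The study extended each insertion site by 75 bp on each side, and the gap to the DAR is 122 bp. If extended sites were counted, 1 insertion could add to both regions. The p-values of region 10 may then depend in part on the values that selected the DAR, which was not tested. After the group means were removed, the Pearson correlation of the 2 regions over the 9 libraries, which share their normalization, was -0.0823 in the CCI table and -0.317 in the CFA table.

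**Figure D1:**
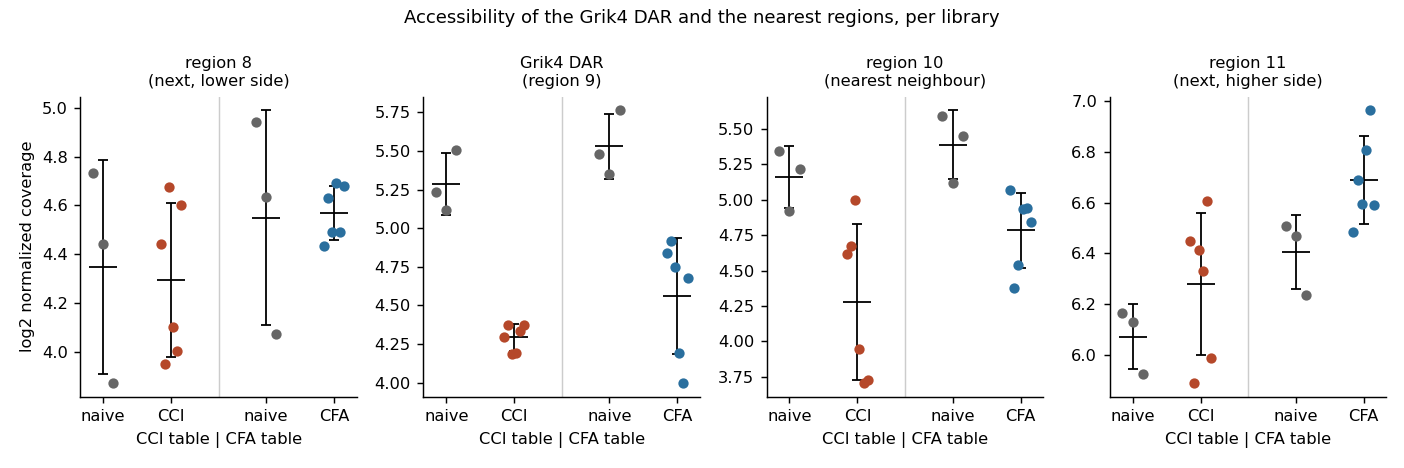
Log2 normalized coverage (y axes, each with its own range) of the Grik4 DAR, its nearest neighbour region 10 and the next regions beyond them, for each library of the CCI table (left of the grey line) and the CFA table (right). Points are libraries and bars the mean and SD (6 CCI, 6 CFA and 3 naïve libraries). The DAR is lower than every naïve library in both tables, while region 8 and region 11 overlap the naïve libraries in both.

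Outside this close pair the locus had a stretch with no region on each side. The next region at lower coordinates was region 8, 21767 bp away, and the next after region 10 was region 11, 112173 bp beyond it. Region 8 (chr8:47215127-47215413) had differences of -0.05 ± 0.23 after CCI and 0.02 ± 0.17 after CFA (SE). Region 7 (chr8:47190148-47190750), 46430 bp from the DAR, had differences of -0.21 ± 0.27 after CCI and -0.30 ± 0.24 after CFA. Region 11 (chr8:47350091-47350667) was at 0.21 ± 0.19 after CCI and 0.28 ± 0.13 after CFA. None of these passed a threshold by limma (adjusted p from 0.282 to 0.964), and the libraries of the groups overlapped at all 3 of them.

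Over the whole locus, 1 of the other 30 regions had an unadjusted p below 0.001 after CCI, and it was lower than in naïve rats. Over all regions, 0.16% were lower and 0.75% were higher at this threshold. After CFA no other region of the locus passed it in either direction by limma, beside 0.556% lower and 0.565% higher over all regions. At an unadjusted p below 0.05, the other regions counted 7 lower and 0 higher after CCI, beside 7.45% and 8.59% of all regions. After CFA they counted 2 lower and 5 higher, beside 9.45% and 9.5%. None of the other 30 regions had an adjusted p below 0.05 by limma in either comparison, beside 0.0158% of all regions after CCI and 0% after CFA.

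The groups did not overlap at 8 of the other 30 regions after CCI, and in all 8 the CCI libraries were the lower ones. That is 26.7% of the regions, beside 5.26% of all regions with lower and 3.85% with higher CCI libraries. After CFA, 2 of the other regions were lower (6.67%) and 3 were higher (10%) without overlap, beside 5.65% and 5.39% of all regions. The median difference of the other 30 regions was -0.21 after CCI, with 20 lower and 10 higher than naïve, and the median over all regions was -0.04. After CFA the median was 0.16, with 10 lower and 20 higher, and over all regions it was 0.01. With only the libraries sequenced in 2 runs the CCI median of the locus was -0.13, and the part of the runs in it was not tested. The regions of a locus may share chromatin domains and are not independent, and no test was made of these medians. The differences also went with the naïve level of a region. This could arise without any effect of CCI or CFA, since the same naïve libraries set the level and enter the difference. In 4 equal classes from the lowest to the highest naïve level, the CCI medians over all regions were 0.11, -0.05, -0.08 and -0.10. The CFA medians were 0.08, -0.01, -0.01 and -0.02. The other regions of the locus had CCI medians of 0.07 (7 regions), -0.26 (9), -0.08 (8) and -0.45 (6) in these classes. Their CFA medians were 0.41, -0.12, 0.18 and 0.05.

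**Figure D2:**
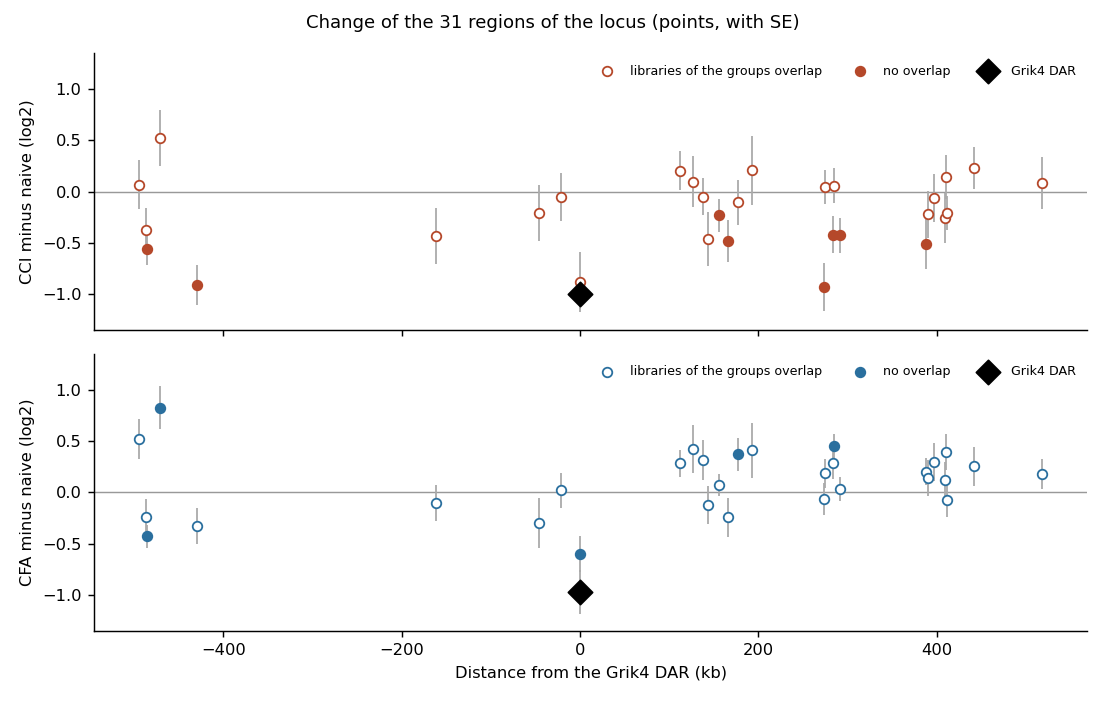
Difference from naïve (log2, y axis) of each region against its distance from the Grik4 DAR in kb (x axis), for CCI (top) and CFA (bottom). Error bars are SE from limma, filled points are regions whose libraries do not overlap between groups (9 after CCI and 6 after CFA, the DAR included), and the black diamond is the DAR at -0.99 and -0.97.

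The region past the threshold after CCI was region 5 (chr8:46806489-46806985), 430195 bp from the DAR. It had values of 5.42, 5.53 and 5.27 in the naïve libraries, and between 4.19 and 4.94 in the CCI libraries, with a median of 4.45. The groups did not overlap. Region 5 fell by 0.91 ± 0.19 (SE) on the log2 scale after CCI, with an adjusted p of 0.102 by limma and an exact permutation p of 0.0119. The region was picked out by its p in this comparison, so the exact p from the same libraries is not a separate test. The exact p was also not adjusted for the number of regions. The difference of region 5 lay between -1.001 and -0.85 with 1 library left out, and at -0.85 with only the libraries sequenced in 2 runs. Its call was lost in 6 of the 9 fits with 1 library left out and in the latter fit. Region 5 had naïve values in the CFA table of 5.67, 5.80 and 5.51, and CFA values between 4.94 and 5.68 that overlapped them. Its difference after CFA was -0.33 ± 0.18 (adjusted p = 0.345 by limma).

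Next to the threshold and just outside it after CCI was region 19 (chr8:47511198-47511780), 273660 bp from the DAR. Its naïve values were 6.11, 6.15 and 5.93, and its CCI values lay between 4.67 and 5.89 with a median of 5.08. CCI 1, at 5.89, stood close below the naïve libraries and the other five CCI libraries lay at 5.17 or less. The difference was -0.93 ± 0.23 (SE), with an adjusted p of 0.119 by limma and an exact permutation p of 0.0119. Region 19 was picked out by its low difference in this comparison, so this unadjusted exact p is not a separate test. Without CCI 1 the difference was -1.08, and its unadjusted p was then below 0.001. With only the libraries sequenced in 2 runs, which keeps CCI 1 and CCI 2, it was -0.53. After CFA region 19 had a difference of -0.06 ± 0.16 (adjusted p = 0.861 by limma), with CFA values between 5.86 and 6.52 around naïve values of 6.44, 6.48 and 6.24. Region 20 lies 264 bp further on, and it had a difference of 0.04 ± 0.16 after CCI.

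Of the regions with higher values, region 4 (chr8:46766135-46766469) had the largest difference of the locus in the CFA table, and in the CCI table with all libraries. It was among the least accessible regions of the naïve ganglion, at the 1.21th percentile of naïve levels in the CFA table. Its naïve values there were 3.87, 3.48 and 4.24, and the CFA values lay between 4.25 and 5.01 with a median of 4.79. The groups were separated only by the narrow step from naïve replicate 3 to CFA 4. The difference was 0.83 ± 0.21 (SE), with an adjusted p of 0.0951 by limma and an exact permutation p of 0.0119. Region 4 was picked out by its high difference, so this unadjusted exact p from the same libraries is not a separate test. After CCI the difference was 0.53 ± 0.27, with an adjusted p of 0.368 by limma and groups that overlapped. With only the libraries sequenced in 2 runs it was 0.28, below region 30 (0.58) and region 1 (0.31), and without naïve replicate 2 it was 0.34. Region 1 (chr8:46742260-46742573) had the second highest difference after CFA, at 0.52 ± 0.19 (adjusted p = 0.184 by limma), and was at 0.07 ± 0.24 after CCI. Region 30 (chr8:47679398-47679813) had the second highest after CCI with all libraries, at 0.23 ± 0.20 (adjusted p = 0.61 by limma), and was at 0.25 ± 0.19 after CFA. Without naïve replicate 2 region 30 was at 0.06 after CCI and 0.07 after CFA, and without naïve replicate 3 at 0.37 and 0.39. Region 11 was at 0.23 after CCI without naïve replicate 2, above region 30.

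Region 22 (chr8:47522009-47522779) was even among the CFA libraries, which lay between 8.17 and 8.30. Its naïve values in that table were 7.74, 7.57 and 7.98, all below every CFA library. The difference was 0.45 ± 0.12 (SE), with an adjusted p of 0.0976 by limma and an exact permutation p of 0.0119. After CCI region 22 was at 0.06 ± 0.17 and its groups overlapped.

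Region 3 (chr8:46750285-46751124) was singled out after its values were seen, as the 1 region besides the DAR that was lower without overlap in both tables. Its naïve values were 6.69, 6.82 and 6.64 in the CCI table, and the CCI libraries lay between 5.76 and 6.36. In the CFA table the naïve values were 7.10, 7.24 and 7.04, and the CFA libraries lay between 6.59 and 6.89. The differences were -0.55 ± 0.17 after CCI (adjusted p = 0.15 by limma) and -0.43 ± 0.11 after CFA (adjusted p = 0.102), against the same naïve libraries.

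**Figure D3:**
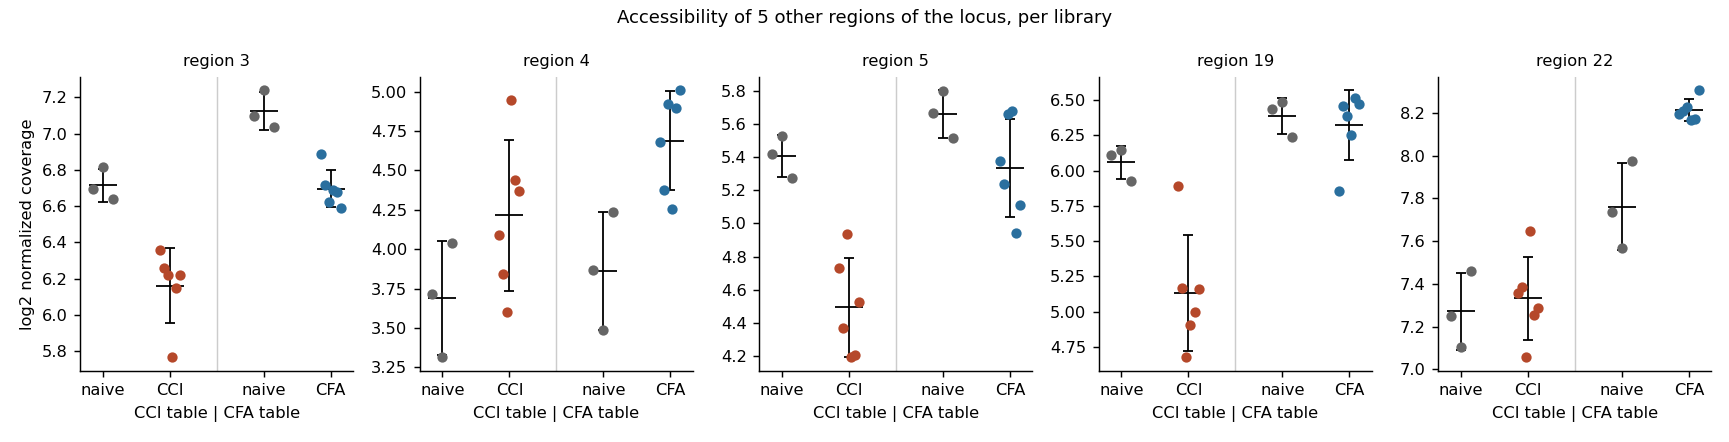
Log2 normalized coverage (y axes, each with its own range) of region 3, region 4, region 5, region 19 and region 22 in each library of the CCI table (left of the grey line) and the CFA table (right). Points are libraries and bars the mean and SD. Region 5 and region 19 are below the naïve libraries in the 6 CCI libraries, region 19 only narrowly in CCI 1. Region 4 and region 22 are above the naïve libraries in the 6 CFA libraries, region 4 only narrowly in CFA 4. Region 3 is below the naïve libraries in both tables.

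The most accessible regions of the locus were region 15 (chr8:47392942-47394515), also its widest at 1573 bp, and region 23 (chr8:47529216-47530281). Their mean naïve levels in the CFA table were 9.08 ± 0.07 and 8.34 ± 0.06 (SD, n = 3). After CFA their differences were 0.07 ± 0.11 and 0.03 ± 0.12 (SE), with adjusted p-values of 0.76 and 0.903 by limma. After CCI region 15 was at -0.23 ± 0.16 and region 23 at -0.42 ± 0.17, with adjusted p-values of 0.51 and 0.251 by limma and no overlap between the groups. For region 15 the groups only just failed to overlap, since CCI 1 and naïve replicate 2 were both at 8.43.

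The regions whose deviations from the group means were most like those of the DAR were region 28 (chr8:47647870-47648535) and region 30 in the CCI table, with Pearson correlations of 0.615 and 0.603 over 9 libraries. In the CFA table they were region 30 and region 22, with 0.581 and 0.476. Over the other 30 regions these correlations ran from -0.633 to 0.615 in the CCI libraries with their naïve controls, and in the CFA table their lowest, -0.87, was that of region 11. These values describe the libraries and share their normalization.

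**Figure D4:**
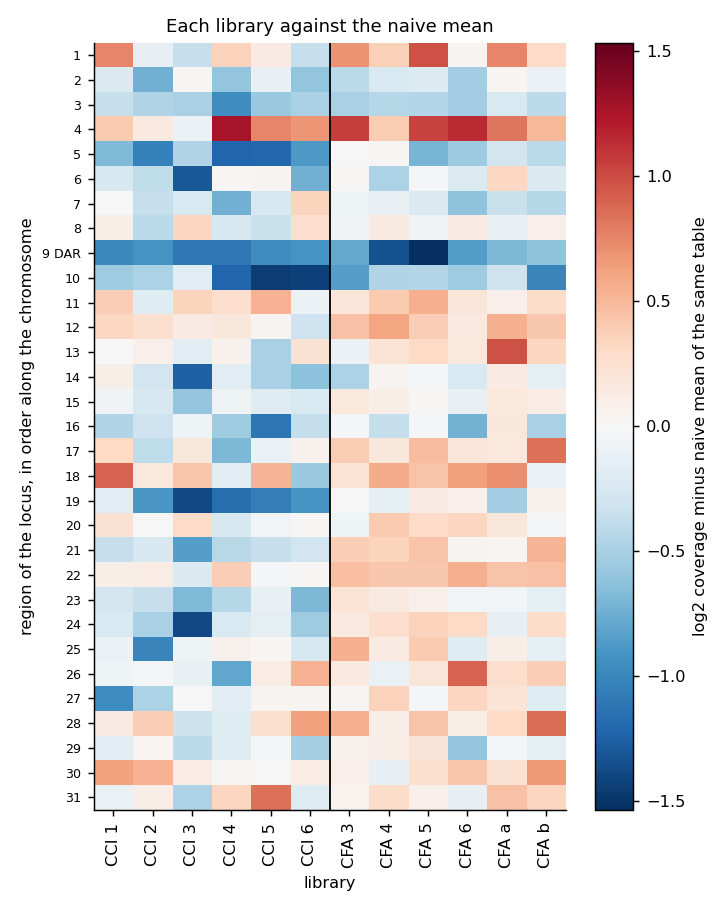
Log2 coverage of each CCI and CFA library (columns) minus the naïve mean of the same table, for the 31 regions in their order along the chromosome (rows); blue is lower and red higher than naïve. Region 9, the Grik4 DAR, is blue in all 12 libraries, and so are its nearest neighbour region 10 and region 3. Of the other 30 regions, 20 are lower than naïve on average after CCI and 10 after CFA.

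The second part of the data was the RNA of the receptor genes after CFA. Grik4 was counted 289 times in the library of CFA replicate 1 and 732 times in that of replicate 2, out of library totals of 10520647 and 28825688. These were 27.5 CPM (exact 95% Poisson interval 24.4 to 30.8) and 25.4 CPM (23.6 to 27.3), or 26.4 ± 1.47 CPM (SD, n = 2). The libraries differed by -0.11 on the log2 scale at Grik4 and their intervals overlapped. For comparison, 15115 genes reached 10 counts in each library, and their median absolute difference was 0.13.

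Neto1 was counted 44 times in replicate 1 and 188 times in replicate 2. These were 4.18 CPM (3.04 to 5.61) and 6.52 CPM (5.62 to 7.52), or 5.35 ± 1.65 CPM (SD, n = 2). Neto1 was higher in replicate 2 by 0.64 on the log2 scale, and 4.44% of the 15115 genes differed by at least as much. The intervals did not overlap, though their ends nearly met. They cover counting error only. With 44 counts in the shallower library, the level of Neto1 was known less closely than that of Grik4, and no change with CFA was tested for either gene, since no RNA counts of another group were used here.

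Neto2, the other auxiliary subunit, had 113 and 436 counts, or 12.9 ± 3.10 CPM (SD, n = 2), and was also higher in replicate 2, by 0.49 on the log2 scale. Because CPM is not corrected for transcript length, these values do not rank the genes against each other.

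Besides Grik4 and Neto1, a list of 49 genes of glutamate receptors, their auxiliary and scaffold proteins and the vesicular glutamate transporters was looked up by symbol. The symbols came from tables in which the study pairs them with Ensembl genes and which were chosen on this experiment, so the 17 genes found are no neutral sample. All 17 reached 10 counts in each library. Their mean levels ran from 1.74 CPM for Cacng8, an AMPA receptor auxiliary subunit, to 395 ± 5.61 CPM for Nptx1, a pentraxin that clusters AMPA receptors at synapses. Its relatives Nptx2 and Nptxr were at 139 ± 16.4 and 183 ± 5.82 CPM. The other kainate subunits Grik1, Grik2, Grik3 and Grik5 were not analysed here.

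Of the AMPA receptor genes, Gria1, a pore-forming subunit, was at 4.42 ± 0.07 CPM, and the auxiliary subunits Cacng4 and Cacng5 were at 31.5 ± 3.88 and 18.4 ± 3.31 CPM. Grip1, an AMPA receptor scaffold, was at 20.4 ± 1.60 CPM. Grin1, the obligatory NMDA receptor subunit, was at 82.3 ± 4.95 CPM. Grm7, a presynaptic metabotropic receptor, was at 19.7 ± 1.12 CPM. Slc17a6, the vesicular transporter that loads glutamate into vesicles, was at 198 ± 26.9 CPM, with 179 CPM in replicate 1 and 217 CPM in replicate 2. Of the postsynaptic scaffold genes, Dlg2 was at 58.3 ± 1.72 CPM, Shank3 at 10.4 ± 0.65 CPM, Dlg3 at 9.07 ± 0.22 CPM, Homer3 at 7.38 ± 1.26 CPM and Begain at 3.59 ± 0.17 CPM. Between the libraries, 8 of the 17 genes were higher in replicate 2, with log2 differences from -0.35 to 0.52. The difference at Neto1 was above this range and that at Grik4 within it.

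**Figure D5:**
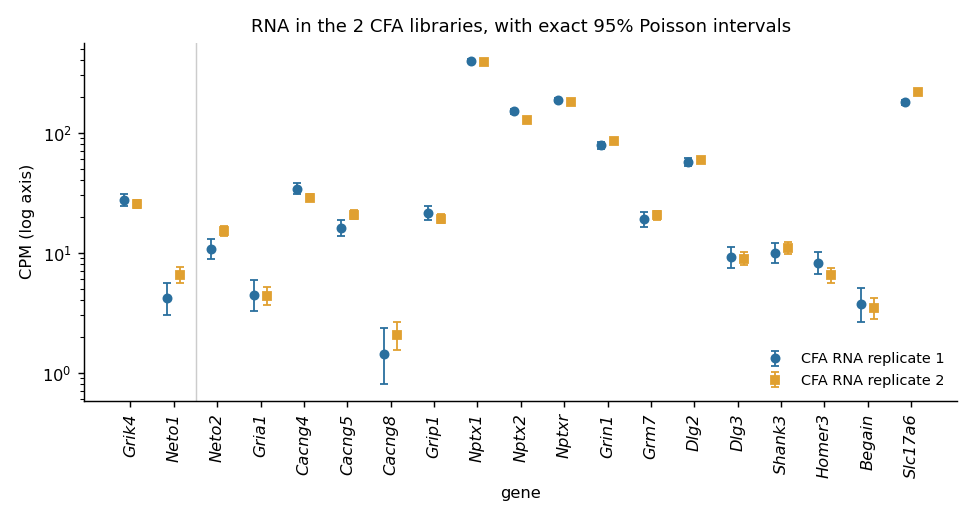
CPM (y axis, log scale) of Grik4, Neto1 and the 17 genes of the glutamate receptor list (x axis) in the 2 CFA RNA libraries, with exact 95% Poisson intervals. Grik4 lies at 27.5 and 25.4 CPM with overlapping intervals, and Neto1 at 4.18 and 6.52 CPM.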

How the data were processed

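ATAC-seq and RNA-seq of rat DRGs were analysed from the deposited tables. Per the study's methods, the authors trimmed ATAC-seq reads with Trimmomatic, aligned them to rn6 with Bowtie2, removed mapping quality under 10 and duplicates, shifted reads for the Tn5 offset, downsampled every library to the same number of insertion sites, called peaks with MACS2 and deposited log2 normalized coverage of a consensus set of regions; the normalization step is not given in the sources used here. RNA-seq reads were aligned with HISAT2 and the deposited counts per Ensembl gene came from featureCounts; the strand setting is not given.

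The members and lists were chosen with earlier results of these data known. limma 3.58.1 (R 4.3.3) was fitted to all 56810 regions of each table, 6 CCI or 6 CFA against 3 naïve libraries, with Benjamini-Hochberg adjustment over all regions and the study's threshold of an unadjusted p below 0.001. Every rat is a library of its own, so the p-values rest on the spread between rats. Among the CCI libraries this spread may also hold the difference between 1 and 2 sequencing runs. Exact permutation tests were two-sided over 84 arrangements of the libraries. Tested on simulated data with 200 of 56810 regions shifted by 1.5 (log2), the fit recovered 183 in the CCI and 192 in the CFA design, with 66 and 65 others called. This shift was larger than any difference in the locus, and the recovery of smaller changes was not tested. CPM used the library total. Counts were 10520647 and 28825688 per RNA library, whose counts differed beyond sampling noise (chi-square per degree of freedom 6.39).

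Regions were named by a rule: the DAR, the nearest 2 on each side, those with p below 0.001, the 2 highest and 2 lowest differences and the 2 most DAR-like in each table, and the 2 highest naïve levels. Genes were those of a list of 49, and 1 further gene is not reported here, with Ensembl pairs taken from the study's tables. Alternatives were single libraries left out, a trended or robust prior, a filter on low regions (under the 25th percentile), median and MAD scaling, a window of 250 kb, other thresholds, libraries with 2 runs, a replicate block, and for RNA edgeR 4.0.16 and DESeq2 1.42.0 scaling or totals over genes with at least 10 counts. Promoters came from RefSeq tables of GRCr8, in which both genes matched.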

Additional observations from a re-analysis of the deposited data

Results flagged for a closer look

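Of the 62 groups of 6 CCI or CFA libraries tested over the locus, 5 held a library whose gap to the others was above Dixon's 95% critical value, and chance flags about 1 in 20 groups. All 5 were low CCI libraries. CCI 3 was the lowest in 3 of them, at 7.88 in region 15 (the others lay between 8.24 and 8.43), at 4.67 in region 21 (5.10 to 5.27) and at 5.94 in region 24 (6.77 to 7.17). CCI 4 was at 5.76 in region 3 (6.15 to 6.36), and CCI 2 was at 4.99 in region 25 (5.76 to 6.07). The values are log2 normalized coverage.

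At region 21 (chr8:47521077-47521321) every CCI library was below the naïve mean and every CFA library was above it, with differences of -0.42 after CCI and 0.29 after CFA. After CCI the groups did not overlap and the adjusted p was 0.282 by limma. After CFA they overlapped, with an adjusted p of 0.354 by limma. The difference between the models was not tested, since the tables were normalized separately.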

How the results depend on the processing

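The decrease at the Grik4 DAR ran from -1.08 to -0.88 after CCI and from -1.06 to -0.85 after CFA with 1 library left out. Its sign was the same in every alternative that gave a value. With 1 library left out or another prior the sign could not change, since every CCI and CFA library was below every naïve library. These ranges therefore describe the size of the decrease only. With a trended prior the SE of the decrease was 0.23 after CCI and 0.24 after CFA, beside the 0.15 and 0.21 given above. The CCI value without naïve replicate 3, -0.88, moved by more than the SD among CCI libraries. The filter on low regions removed the DAR itself in both tables, so it gives no value there, and it kept 22 of the other 30 regions in the CCI and 24 in the CFA table. The count of other regions called after CCI was 1, and ran from 0 to 2 with 1 library left out: it was 0 without each naïve library in turn and without CCI 2, CCI 4 or CCI 5, and 2 without CCI 1. It was 0 with the libraries of 2 runs, 0 with the replicate block, 0 among the 12 regions within 250 kb and 0 at an adjusted p below 0.05, and 7 at an unadjusted p below 0.05. After CFA the count of 0 became 1 with a trended prior (region 22) and 7 at an unadjusted p below 0.05. With that prior region 19 replaced region 5 after CCI. The locus median stayed negative after CCI (-0.22 to -0.12) and positive after CFA (0.086 to 0.18) with 1 library left out, the lowest CFA value being 0.086 without naïve replicate 2. Within 250 kb of the DAR the CFA median was 0.047. Small differences changed sign with 1 library left out, ranging after CCI from -0.068 to 0.15 in region 1, -0.54 to 0.072 in region 7, -0.29 to 0.14 in region 8 and -0.024 to 0.15 in region 22, and after CFA from -0.66 to 0.0024 in region 7, -0.22 to 0.22 in region 8, -0.14 to 0.029 in region 19 and -0.0013 to 0.071 in region 23.

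The replicate numbers shared by naïve and CCI columns are not stated to mark a common litter or day. Deviations of same-numbered libraries correlated at -0.0581, 0.0728 and -0.0288, which gave no sign that the numbers pair the samples and does not exclude it. With the replicate block, CCI libraries whose number no naïve library has add nothing to the difference. The count of called regions with this block is limited in the same way. With it, region 10 was at -0.40, region 5 at -0.73, region 4 at 0.16, region 30 at 0.42, region 8 at 0.0075 and region 22 at -0.0063 after CCI. The loss of those libraries and the pairing cannot be told apart in these values. For the CFA table no paired analysis was possible, because CFA and naïve columns share only 1 number. The RNA levels ran from 25.4 to 27.5 CPM for Grik4 and from 4.18 to 6.52 CPM for Neto1 over single libraries, and the other scalings moved them by less than the SD. With 3 naïve rats the smallest exact p is 0.0119, and the unknown depth per region limits how closely low regions were measured.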
